A study of Mus musculus with 12 samples.

Results

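The genes described here are 8 genes of tight junctions and of blastocyst cavity formation, read in mouse blastocysts on Affymetrix arrays. They are the claudins Cldn4, Cldn6 and Cldn7, occludin (Ocln), the junctional adhesion molecule F11r, the scaffold Tjp1, the sodium pump subunit Atp1b1 and the water channel Aqp3. A probe set, the array's group of short probes for a transcript, was taken when the platform's annotation pairs it with exactly 1 of these genes. That gave 17 probe sets of the 45037 on the array besides array controls, and 8 of the 18194 genes that have such a probe set. All 17 reached the minimum average signal of 100 and so were among the 27808 tested. Cldn4, Cldn6, Cldn7 and Tjp1 have 1 probe set each, Ocln and F11r 2 each, Aqp3 4 and Atp1b1 5.

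A blastocyst forms when the outer cells of the embryo, the trophectoderm, become an epithelium that encloses a fluid-filled cavity. Tight junctions seal the gaps between these cells: claudins and occludin span the membrane, F11r is an adhesion protein of the same contacts, and Tjp1 (ZO-1) ties them to the actin cytoskeleton. The sodium pump on the basolateral side moves sodium inward, and water follows, in part through aquaporins, so that the seal and the pump together let the cavity fill.

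The 3 groups hold 4 arrays each. Control arrays carried RNA of normal blastocysts, the 20 pulses arrays RNA of blastocysts treated by 20 Ca2+ pulses, and the Ca-free arrays RNA of blastocysts cultured in medium without Ca2+. According to the study's title, the question is how the Ca2+ oscillations of the fertilised egg bear on later gene expression. The sources used here do not give strain, embryos per array, pulse form, or the stage and length of the Ca-free culture. The labels do not tell whether each replicate was its own batch of embryos, and the p-values reflect only how far these samples vary among themselves, which may be technical. The RNA is of whole embryos, so fewer cells of a type and less RNA per cell cannot be told apart.

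Some features of the arrays touch every result. Each deposited array had the same trimmed mean, yet its median signal was 38.3 to 39.2 in Ca-free medium against 49.4 to 53.05 in the controls and 47.4 to 53.7 after 20 pulses. The median log2 change of all tested probe sets in Ca-free medium against control was -0.18, and it was -0.03 after 20 pulses. Control arrays 3 and 4 stood apart from controls 1 and 2: their ratio of 3′ to 5′ Actb signal was 2.69 and 2.64 against 1.59 and 1.67, and their 18S rRNA signal 878 and 883 against 2409 and 2559. Results of the members below are therefore also given with either pair of controls where that makes or ends a call or moves a called value by more than 1.5 times. Markers and other genes of the pathway are not given with either pair. The 3′ to 5′ ratio of Gapdh was lower in Ca-free medium than in controls (log2 difference -0.88; two-sided exact permutation p = 0.0286, the smallest that 70 arrangements allow), and within the group it was 3.10 and 2.89 on Ca-free arrays 2 and 3 against 5.05 and 4.73 on arrays 1 and 4. The 18S rRNA signal was higher than in controls by 1.72 in Ca-free medium and 1.08 after 20 pulses on the same scale (exact permutation p = 0.0286 each). The summed signal of 8 trophectoderm markers was 41757 to 43926 in controls, 39407 to 41916 after 20 pulses and 41607 to 43104 in Ca-free medium, and none of these values was 0. Within that list Eomes fell in Ca-free medium (-0.70; limma adjusted p = 0.000545) while Cdx2 (0.28; 0.0199) and Krt7 (0.41; 0.0275) rose. Its count of higher and lower calls, 2 and 1, became 1 and 2 by quantile normalization, 7 and 1 by median scaling and 0 and 3 by the hybridization controls. Over all tested probe sets the calls in Ca-free medium were 2944 higher and 8249 lower by trimmed mean and 2747 and 2755 by quantile normalization. They were 10263 and 1517 by median scaling and 768 and 13773 by the hybridization controls. For 7 inner cell mass markers the sums were 18660 to 20052, 19903 to 21139 and 19860 to 21186. Of these, Sox17 rose after 20 pulses (1.00; limma adjusted p = 0.0269), and in Ca-free medium Gata4 fell (-0.69; 0.00238) and Pou5f1 rose (0.20; 0.0329). The list's calls in Ca-free medium became 0 higher and 0 lower by quantile normalization, 4 higher and 0 lower by median scaling, and 0 higher and 1 lower by the hybridization controls. Markers of other tissues were summed in the same way. In Ca-free medium, 5 of 8 tested oviduct and uterine epithelium markers and all 3 tested cumulus and granulosa markers were lower than in the controls by limma. Of the 13599 genes read by their brightest tested probe set, 12.3% were called higher and 28.8% lower, the share to set beside each of these marker lists. The lists hold 10 and 9 genes on the array, so most cumulus markers were too dim to be tested. Their lower calls became 3 and 3 by quantile normalization, 2 and 2 by median scaling, and 8 and 3 by the hybridization controls. The sums fell from between 1567 and 1777 to between 834 and 1126 for the oviduct list, and from between 1007 and 1151 to between 454 and 579 for the cumulus list. After 20 pulses these sums were 1374 to 1608 and 628 to 1006. The blood list summed to 648 to 929, 780 to 984 and 598 to 637 in the same order of groups, and no marker value in these 3 lists was 0. The tested markers of these 3 lists averaged 130 to 433 in controls, and detection calls were not used. The sums therefore do not show that cells of these tissues were present. The part of RNA quality and of any such cells in the results was not tested.

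Promoters are shown for Atp1b1, Aqp3 and Ocln, because these are the genes with a probe set that passed the test against control. Each line gives the 250 bases before a transcription start in RefSeq, 5′ to 3′ in the direction of the gene, in build GRCm38.p6; all 3 lie on the minus strand. Capitals mark matches to any of 3 motifs searched on both strands: the TFAP2 motif GCCNNNGGC, the TEAD motif GGAATG and the GC box GGGCGG. TFAP2 and TEAD factors act in the trophectoderm, and the GC box is bound by Sp family factors.
Atp1b1, chr1:164458356-164458605: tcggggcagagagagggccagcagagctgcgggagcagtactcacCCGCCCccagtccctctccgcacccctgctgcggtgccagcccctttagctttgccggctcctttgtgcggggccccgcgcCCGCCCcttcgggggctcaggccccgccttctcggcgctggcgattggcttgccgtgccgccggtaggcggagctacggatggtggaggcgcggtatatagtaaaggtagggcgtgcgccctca
Aqp3, chr4:41098184-41098433: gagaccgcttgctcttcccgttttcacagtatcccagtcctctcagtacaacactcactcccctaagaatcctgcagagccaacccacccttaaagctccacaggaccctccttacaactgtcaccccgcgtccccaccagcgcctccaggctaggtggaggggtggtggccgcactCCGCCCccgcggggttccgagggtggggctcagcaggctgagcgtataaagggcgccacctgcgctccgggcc
Ocln, chr13:100552499-100552748: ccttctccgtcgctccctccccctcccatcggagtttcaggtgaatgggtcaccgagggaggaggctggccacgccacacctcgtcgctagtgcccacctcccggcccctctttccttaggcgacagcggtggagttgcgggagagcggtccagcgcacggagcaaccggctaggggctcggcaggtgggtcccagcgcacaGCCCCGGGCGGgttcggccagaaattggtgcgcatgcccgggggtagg
The Atp1b1 window holds 2 GC boxes and the Aqp3 window 1. The Ocln window shown holds 1 GC box that overlaps 1 TFAP2 match. The window of the other Ocln start, chr13:100552719-100552968, is not shown. It overlaps the first and holds 1 GC box and no TFAP2 match. Over all 8 genes, 10 such windows were found, as Cldn7 and Ocln have 2 starts each. A GC box was in 9 of the 10 windows and in 32.7% of 32851 windows of the same length over all genes. The TFAP2 motif was in 1 of 10 (13.7% of all windows) and the TEAD motif in 1 of 10 (12.6%), the latter in a Cldn7 window. These matches are letters in a window and say nothing of binding.

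In Ca-free medium against control, 3 of the 17 probe sets were called higher and 3 lower (limma, adjusted p under 0.05 over all 27808 tested). Of all tested probe sets, 10.6% were called higher and 29.7% lower, so the share of called members (6 of 17) was near that of all probe sets (40.3%). The higher ones were 2 probe sets of Atp1b1 and 1 of Aqp3. The lower ones were 1 probe set each of Ocln, Atp1b1 and Aqp3. On the same 3 probe sets each way, the Ca-free arrays all lay above or all below the controls, against 9.23% above and 27% below over all probe sets. After 20 pulses, 2 probe sets were called higher, both of Atp1b1, against 1.1% of all probe sets. There were 0 called lower by limma, against 0.374% of all, with 1 member lower at an unadjusted p under 0.05. All 20 pulses arrays lay above all controls on 2 members and below on 1, against 5.85% and 5.11% of all probe sets. The median log2 change of the 17 probe sets was -0.03 in Ca-free medium, against -0.18 over all tested probe sets. After 20 pulses it was -0.00349 against -0.03. The control arrays are shared by both comparisons.

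**Figure D1:**
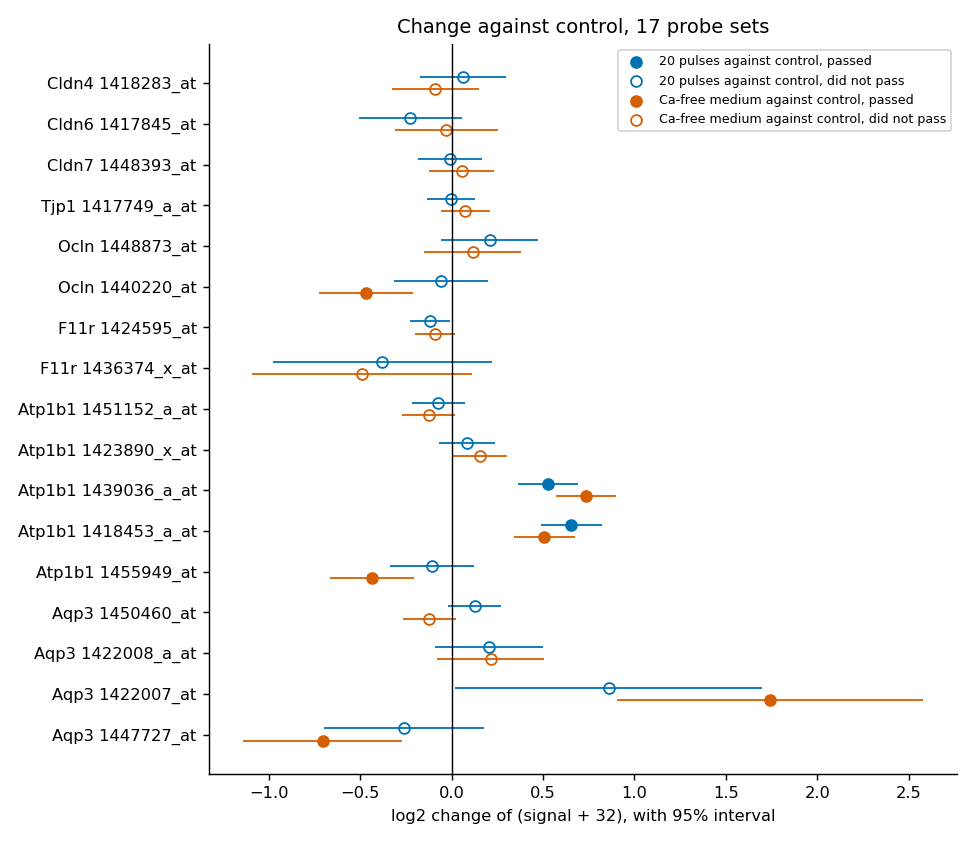
Log2 change of each of the 17 probe sets against control, with its 95% interval, for Ca-free medium and for 20 pulses; filled points passed the test (limma, adjusted p under 0.05). Atp1b1 1439036_a_at and 1418453_a_at lie to the right of 0 in both treatments, and Aqp3 1422007_at has the largest change, 1.74, and the widest interval in Ca-free medium.

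Atp1b1 encodes a beta subunit of the sodium pump, which the pump needs to reach the membrane. Of its 5 probe sets, 1439036_a_at and 1418453_a_at were higher than control in both treatments, and 1455949_at was lower in Ca-free medium. The brightest, 1451152_a_at, and 1423890_x_at did not pass in either. On 1439036_a_at the control arrays read 2573, 2425, 2328 and 2504. The 20 pulses arrays read 3299.7, 3627, 3544 and 3742, and the Ca-free arrays 4567, 3716, 3721 and 4525. Every treated array was above every control array in both treatments. The change was 1.67-fold in Ca-free medium (95% interval 1.49 to 1.87; log2 0.74, SE 0.08; limma adjusted p = 9.67e-05, n = 4). After 20 pulses it was 1.44-fold (1.29 to 1.61; log2 0.53, SE 0.08; adjusted p = 0.00632). Fold changes here and below are on the log2(signal + 32) scale, which understates changes of dim probe sets. The call held under every alternative tried in both comparisons, with a log2 change of 0.53 to 1.15 over 27 alternatives in Ca-free medium and of 0.50 to 0.69 over 25 after 20 pulses.

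The signals of 1418453_a_at were 1648, 1515, 1509 and 1709.8 in controls. They were 2440.1, 2435, 2622 and 2617 after 20 pulses, and 2415, 1955, 2327 and 2455 in Ca-free medium. Again no treated array overlapped a control array, but here the 20 pulses arrays were the higher ones on average. The change was 1.57-fold after 20 pulses (1.4 to 1.77; log2 0.65; limma adjusted p = 0.00268) and 1.42-fold in Ca-free medium (1.27 to 1.6; log2 0.51; adjusted p = 0.000518). Both calls held under every alternative. Ca-free medium against 20 pulses differed by -0.15 on this probe set (limma adjusted p = 0.156).

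The brightest probe set of the gene, 1451152_a_at, had overlapping groups. It read 6122, 6934, 5761 and 5375 in controls, 5887, 5731, 5772 and 5499 after 20 pulses, and 5836, 5365, 5338 and 5537 in Ca-free medium. The log2 change was -0.13 in Ca-free medium (95% interval -0.27 to 0.02; limma adjusted p = 0.146) and -0.07 after 20 pulses (adjusted p = 0.640). The call in Ca-free medium depended on the setting. It was called lower with controls 1 and 2 only (-0.24; adjusted p = 0.0182; -0.0128 with controls 3 and 4 only), without control replicate 4 (-0.18; 0.0431), under quantile normalization (-0.25; 0.0148) and under scaling to the hybridization controls (-0.33; 0.00236). Under median scaling it was called higher (0.28; 0.00184). On 1423890_x_at, a type of probe set whose probes can also match other transcripts, the means were 3857 ± 233 in controls, 4085 ± 38.3 after 20 pulses and 4304 ± 453 in Ca-free medium (SD, n = 4). Neither change passed (0.08 and 0.15 on the log2 scale; limma adjusted p = 0.608 and 0.0962), although the latter did without Ca-free replicate 3 (0.21; adjusted p = 0.0199), with Ca-free arrays 1 and 4 only (0.28; 0.00653) and under median scaling (0.56).

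The dimmest, 1455949_at, went the other way in Ca-free medium. Controls read 346, 390.0, 432 and 395, the 20 pulses arrays 428, 307, 351 and 362, and the Ca-free arrays 297, 286, 273 and 265. All Ca-free arrays lay below all others, while the 20 pulses arrays overlapped the controls. The log2 change in Ca-free medium was -0.43 (SE 0.11; fold 0.74; limma adjusted p = 0.00649). The call ended under quantile normalization (-0.19), median scaling (-0.06) and with controls 1 and 2 only (-0.36).

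Probe sets of 1 gene can be set against each other within an array. This removes any constant factor of the array, but not a shift that depends on the level of signal. Relative to 1451152_a_at, the log2 ratio of 1439036_a_at was -1.50 to -1.09 in controls, -0.83 to -0.55 after 20 pulses and -0.53 to -0.29 in Ca-free medium. The ratio of 1418453_a_at was -2.17 to -1.63, -1.26 to -1.06 and -1.44 to -1.16, and that of 1423890_x_at -0.73 to -0.52, -0.51 to -0.43 and -0.50 to -0.26. For these 3 probe sets each treated array lay above each control array. The ratio of 1455949_at lay below, at -4.23 to -4.09 in Ca-free medium against -4.05 to -3.64 in controls. By quantile normalization the order of these changes, given above, was reversed, and 1451152_a_at fell more than 1455949_at. On values scaled to the trimmed mean, the probe sets of Atp1b1 thus changed unequally within the arrays. The Gapdh ratio and 18S signal given above moved with the groups too, and their part in this was not tested. These ratios share their denominator and are not independent of each other. Over the members with more than 1 probe set there are 9 such ratios. In Ca-free medium 4 of them lay above the controls on every array, against 9.31% of 9392 ratios over all genes, and 2 lay below, against 16.9%. After 20 pulses 3 lay above, all of Atp1b1, against 5.4%, and 0 below, against 4.13%.

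**Figure D2:**
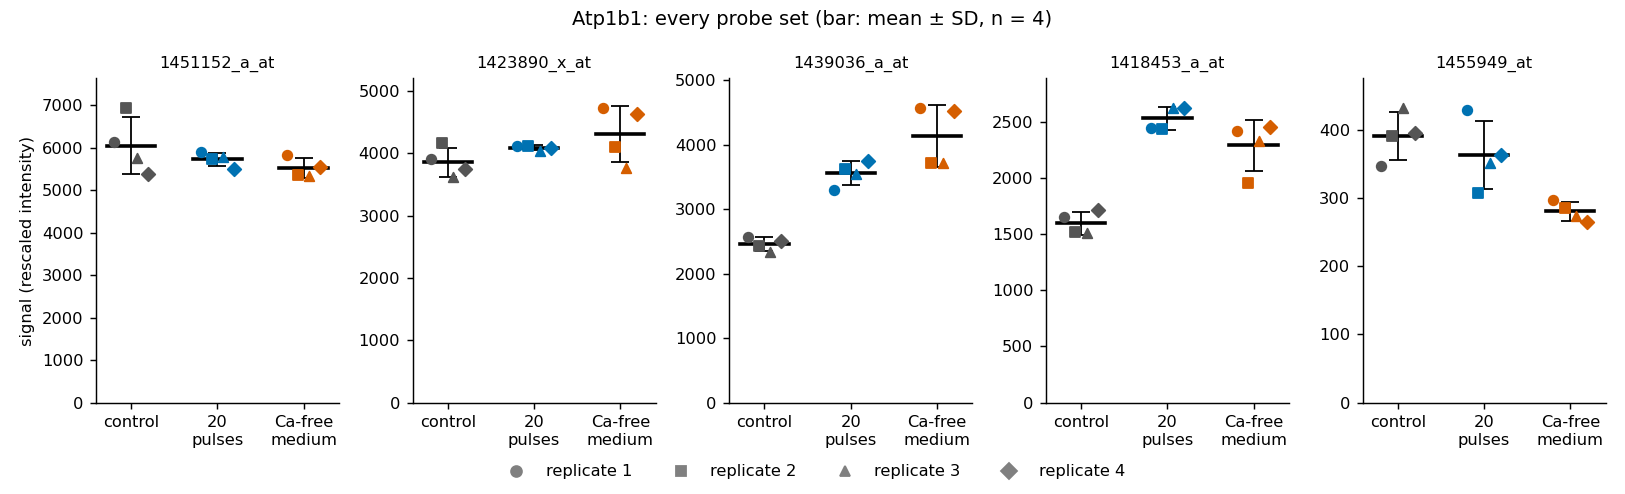
Signal (rescaled intensity) of each probe set of Atp1b1 on every array, by group, with a point per array, a bar for the mean and a line for the SD (n = 4). The treated arrays lie above the controls on 1439036_a_at and 1418453_a_at, overlap them on 1451152_a_at and 1423890_x_at, and lie below them in Ca-free medium on 1455949_at.

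Aqp3 encodes an aquaporin that passes water and glycerol. Its brightest probe set did not pass the test against control in either treatment, and its 2 dimmest changed in opposite directions in Ca-free medium. On the brightest, 1450460_at, controls read 3171, 3196, 2702 and 2802, the 20 pulses arrays 3314, 3178, 3293 and 3140.5, and the Ca-free arrays 2649, 2950.4, 2689 and 2583. The Ca-free arrays overlapped the controls (log2 change -0.12; limma adjusted p = 0.156) and all lay below the 20 pulses arrays. This change was called lower with controls 1 and 2 only (-0.23), under quantile normalization (-0.25) and under scaling to the hybridization controls (-0.33), and called higher under median scaling (0.28). After 20 pulses the change was 0.12 (adjusted p = 0.392), and it passed under scaling to the hybridization controls (0.29; 0.0374). Ca-free medium against 20 pulses was -0.25 (SE 0.07; fold 0.842; limma adjusted p = 0.0139), a call that ended with Ca-free arrays 2 and 3 only (-0.20) and a value that turned to 0.12 under median scaling.

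The probe set with the largest change was 1422007_at. Controls read 178, 218, 16.4 and 42.7, with controls 3 and 4, the arrays that stood apart above, at the low end. The 20 pulses arrays read 194, 159.9, 248 and 137, and the Ca-free arrays 373, 364, 307 and 404. All Ca-free arrays lay above all others. The change in Ca-free medium was 3.34-fold (log2 1.74, 95% interval 0.90 to 2.58, SE 0.39; limma adjusted p = 0.00393). Its size depended on the pair of controls: 0.78 with controls 1 and 2 only (adjusted p = 0.0113) and 2.71 with controls 3 and 4 only (adjusted p = 2.93e-05), and the call held in all 25 alternatives tried. After 20 pulses the change was 0.86 (adjusted p = 0.304), with 1.82 for controls 3 and 4 only (adjusted p = 0.000857) and -0.11 for controls 1 and 2 only. Relative to 1450460_at, the log2 ratio of this probe set was -5.82 to -3.69 in controls, -4.23 to -3.57 after 20 pulses and -3.01 to -2.58 in Ca-free medium.

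On 1447727_at the order was reversed. Controls read 234, 168, 205 and 166, the 20 pulses arrays 192, 114, 173 and 149.7, and the Ca-free arrays 85.6, 159, 124 and 69.3. Every Ca-free array was below every control array, and the 20 pulses arrays overlapped both. The log2 change in Ca-free medium was -0.71 (SE 0.20; fold 0.613; limma adjusted p = 0.0142). The call ended under quantile normalization (-0.38), median scaling (-0.37), with controls 3 and 4 only (-0.66) and with Ca-free arrays 2 and 3 only (-0.37). The fourth probe set, 1422008_a_at, averaged 604 ± 92.3, 697 ± 70.8 and 710.1 ± 143 in controls, 20 pulses and Ca-free medium, and neither change passed (log2 0.20 and 0.21; limma adjusted p = 0.510 and 0.223). In Ca-free medium it passed with Ca-free arrays 2 and 3 only (0.45; 0.0248) and under median scaling (0.61; 0.00218), and was -0.0269 with arrays 1 and 4 only.

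**Figure D3:**
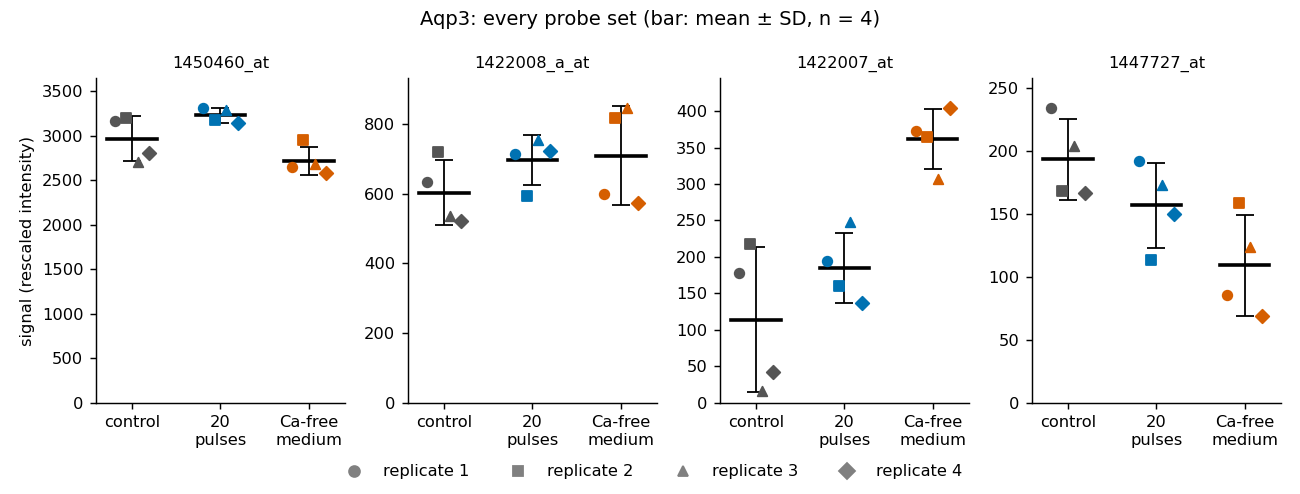
Signal (rescaled intensity) of each probe set of Aqp3 on every array, by group, with a point per array, a bar for the mean and a line for the SD (n = 4). On 1422007_at the Ca-free arrays read 307 to 404 and controls 3 and 4 read 16.4 and 42.7; on 1447727_at the Ca-free arrays lie below the controls.

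The claudins form the strands of the seal. Of the 3 read here, 0 passed in either treatment by limma, and 0 had an unadjusted p under 0.05. Under median scaling Cldn4 (0.31; adjusted p = 0.0212) and Cldn7 (0.46; 0.00104) were called higher in Ca-free medium. Cldn4 read 1366, 1259, 1343 and 1360.4 in controls, 1765, 1489, 1282 and 1111 after 20 pulses and 1264, 1336, 1147 and 1255 in Ca-free medium. The 20 pulses arrays spread on both sides of the controls, with an SD of 282 against 49.8. The log2 change was -0.09 in Ca-free medium (95% interval -0.33 to 0.15; limma adjusted p = 0.535) and 0.06 after 20 pulses (-0.18 to 0.30; adjusted p = 0.832).

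Cldn6 read 652, 586, 921 and 900.5 in controls, 613, 639, 605 and 695 after 20 pulses and 642, 749.7, 735 and 826 in Ca-free medium. Controls 3 and 4 were the high ones. The change after 20 pulses was -0.23 (95% interval -0.51 to 0.05; limma adjusted p = 0.428). It was -0.50 with controls 3 and 4 only, which passed (adjusted p = 0.030), and 0.04 with controls 1 and 2 only. In Ca-free medium it was -0.03 (-0.31 to 0.25; adjusted p = 0.874), and it turned to 0.24 with controls 1 and 2 only.

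Cldn7 averaged 3299 ± 398 in controls, 3265 ± 235 after 20 pulses and 3412 ± 198 in Ca-free medium (SD, n = 4), from 2947 to 3778 over all arrays. The log2 change was 0.05 in Ca-free medium (95% interval -0.12 to 0.23; limma adjusted p = 0.621) and -0.01 after 20 pulses (-0.19 to 0.17; adjusted p = 0.971). Missing the threshold does not show that the levels of a claudin are equal between groups.

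Occludin, another protein of the seal, had 1 probe set that passed and 1 that did not. On 1440220_at controls read 309, 331, 322 and 298, the 20 pulses arrays 309, 332, 305 and 261, and the Ca-free arrays 222, 269, 174 and 220.0. Every Ca-free array was below every control array. The log2 change in Ca-free medium was -0.47 (95% interval -0.73 to -0.21; SE 0.12; fold 0.723; limma adjusted p = 0.00793), and after 20 pulses it was -0.06 (adjusted p = 0.854). The call in Ca-free medium ended under quantile normalization (-0.17), median scaling (-0.10) and with controls 3 and 4 only (-0.45, adjusted p = 0.0556).

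The brighter Ocln probe set, 1448873_at, read 465, 449, 445 and 450.1 in controls, 439, 623, 489 and 578 after 20 pulses and 412, 616, 495 and 465 in Ca-free medium. Both treated groups spread more widely than the controls (SD 83.5 and 86.5 against 8.68) and overlapped them. Neither change passed, at 0.11 in Ca-free medium (95% interval -0.15 to 0.38; limma adjusted p = 0.475) and 0.21 after 20 pulses (-0.06 to 0.47; adjusted p = 0.440), though median scaling called it higher in Ca-free medium (0.50; 0.00808). The log2 ratio of 1440220_at to 1448873_at was -0.55 to -0.40 in controls and lay below that on every Ca-free array, at -1.36 to -0.81.

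F11r, or JAM-A, is an immunoglobulin-like adhesion protein of the junction. Its bright probe set, 1424595_at, read 4892, 4829.6, 5426 and 5212 in controls, 4781, 4792, 4660.1 and 4495 after 20 pulses and 4684, 4787, 4706 and 4877 in Ca-free medium. Each 20 pulses array was below each control array, with a log2 change of -0.12 (95% interval -0.23 to -0.01) that did not pass (limma adjusted p = 0.274). In Ca-free medium it was -0.09 (-0.20 to 0.02; adjusted p = 0.156). It was called lower there under quantile normalization (-0.23; 0.0034) and scaling to the hybridization controls (-0.30; 0.00421), and higher under median scaling (0.32; 0.00106). The other probe set, 1436374_x_at, was dim: 214, 131, 119 and 87.4 in controls, 83.0, 85.5, 144 and 75.0 after 20 pulses and 64.6, 43.8, 130.2 and 125 in Ca-free medium. Its groups overlapped (log2 -0.38 and -0.49; limma adjusted p = 0.553 and 0.173).

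Tjp1, the scaffold under the seal, read 5177, 5064, 4852 and 4791 in controls, 4573, 5170.3, 5044 and 5059.6 after 20 pulses and 4955, 5609, 5590.0 and 4842 in Ca-free medium. All groups overlapped. The log2 change was 0.08 in Ca-free medium (95% interval -0.06 to 0.21; limma adjusted p = 0.344) and -0.00349 after 20 pulses (-0.14 to 0.13; adjusted p = 0.987). Under median scaling it was called higher in Ca-free medium (0.49).

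**Figure D4:**
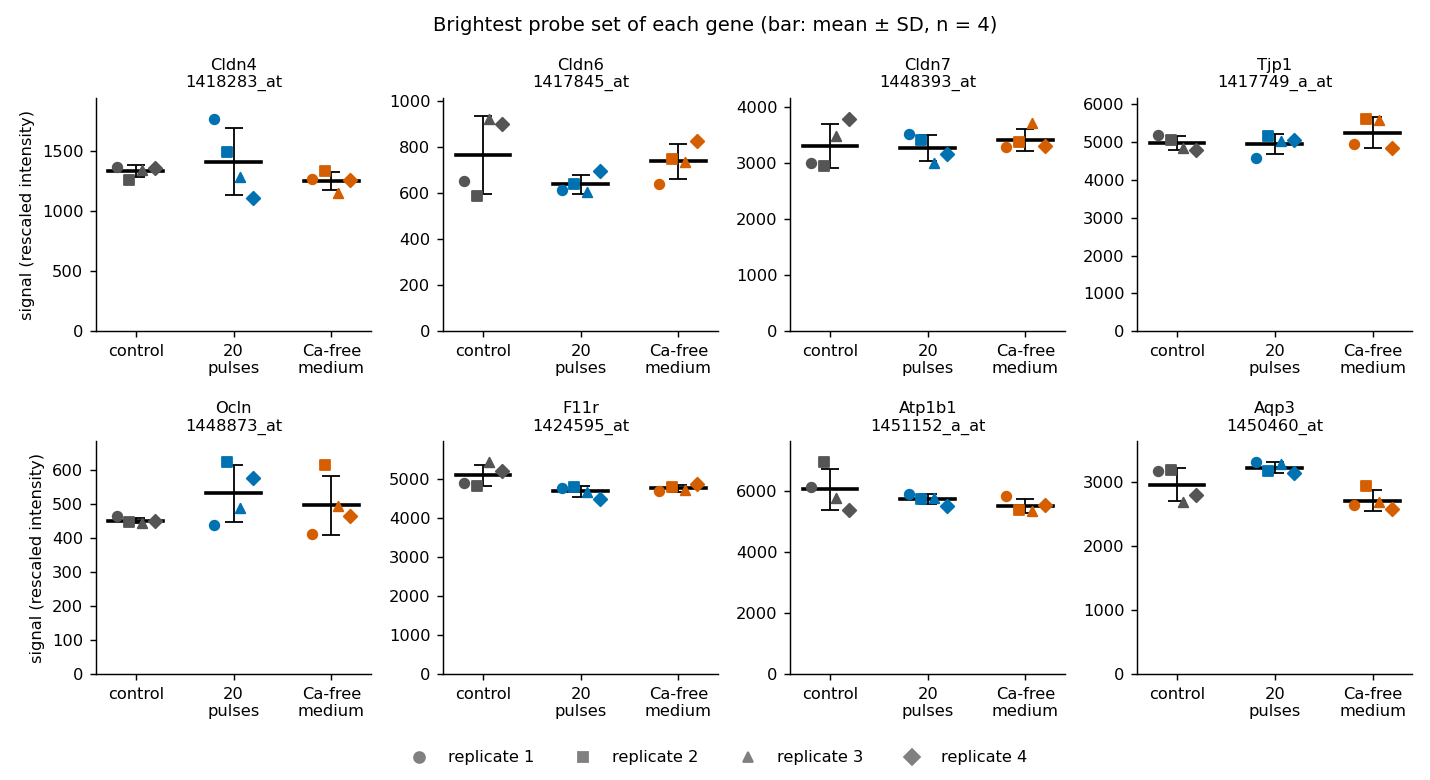
Signal (rescaled intensity) of the brightest probe set of each of the 8 genes on every array, by group, with a point per array, a bar for the mean and a line for the SD (n = 4). On F11r each 20 pulses array lies below each control array, and on the other 7 genes both treated groups overlap the controls.

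Ca-free medium was also set against 20 pulses directly. There 1 member was called higher and 3 lower (limma), against 9.22% and 23.4% of all tested probe sets. The higher one was Atp1b1 1439036_a_at (log2 0.21; adjusted p = 0.0479), whose groups overlapped and whose call ended in 15 of 25 alternatives, with Ca-free arrays 2 and 3 only at 0.07 and the sign turned under scaling to the hybridization controls (-0.16). The lower ones were Aqp3 1450460_at, given above, Atp1b1 1455949_at (-0.33; adjusted p = 0.0313) and Ocln 1440220_at (-0.41; adjusted p = 0.0198). The last had overlapping groups. The Ca-free arrays lay wholly above the 20 pulses arrays on 1 member and wholly below on 2, against 9.29% and 22.2% of all probe sets. On Aqp3 1422007_at the Ca-free arrays were all higher, but the change of 0.88 did not pass (adjusted p = 0.0955). It passed in 4 of 23 alternatives: under median scaling (1.22), with 100 added (0.71), when the control arrays were kept out of the fit (adjusted p = 0.00474) and without control replicate 3 (adjusted p = 0.0352). Leaving out single arrays ended the call of Atp1b1 1439036_a_at for 9 arrays (all but 20 pulses replicate 4 and Ca-free replicates 2 and 3), with a change of 0.16 to 0.26 over the 12. It ended that of Atp1b1 1455949_at for 6 (20 pulses replicates 1, 3 and 4, Ca-free replicates 2, 3 and 4; -0.40 to -0.25), and that of Ocln 1440220_at for 2 (20 pulses replicate 2, -0.36, and Ca-free replicate 3, -0.31). Aqp3 1450460_at kept its call with any array left out.

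The way the arrays are brought to a common scale decided many calls, among them the 3 lower calls of members in Ca-free medium. Size did not separate these: Aqp3 1447727_at (-0.71) lost its call, while Atp1b1 1418453_a_at (0.51) kept it. In Ca-free medium the median log2 change of all probe sets was -0.18 after scaling to the trimmed mean, -0.02 after quantile normalization, 0.20 after median scaling and -0.36 after scaling to the hybridization controls. The calls over all probe sets were 2944 higher and 8249 lower by trimmed mean, 2747 and 2755 by quantile, 10263 and 1517 by median, and 768 and 13773 by hybridization controls. Among the members, Atp1b1 1439036_a_at, Atp1b1 1418453_a_at and Aqp3 1422007_at were called higher in Ca-free medium under all 4 scalings. No member was called lower under all 4. Quantile normalization also gave 3 lower calls, but 0 of them were shared with those by trimmed mean: they were F11r 1424595_at, Atp1b1 1451152_a_at and Aqp3 1450460_at. Median scaling called 12 members higher and 0 lower, and scaling to the hybridization controls 3 higher and 6 lower. After 20 pulses the scalings gave 307 higher and 104 lower, 368 and 132, 309 and 44, and 2125 and 35, and both Atp1b1 calls held in each.

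**Figure D5:**
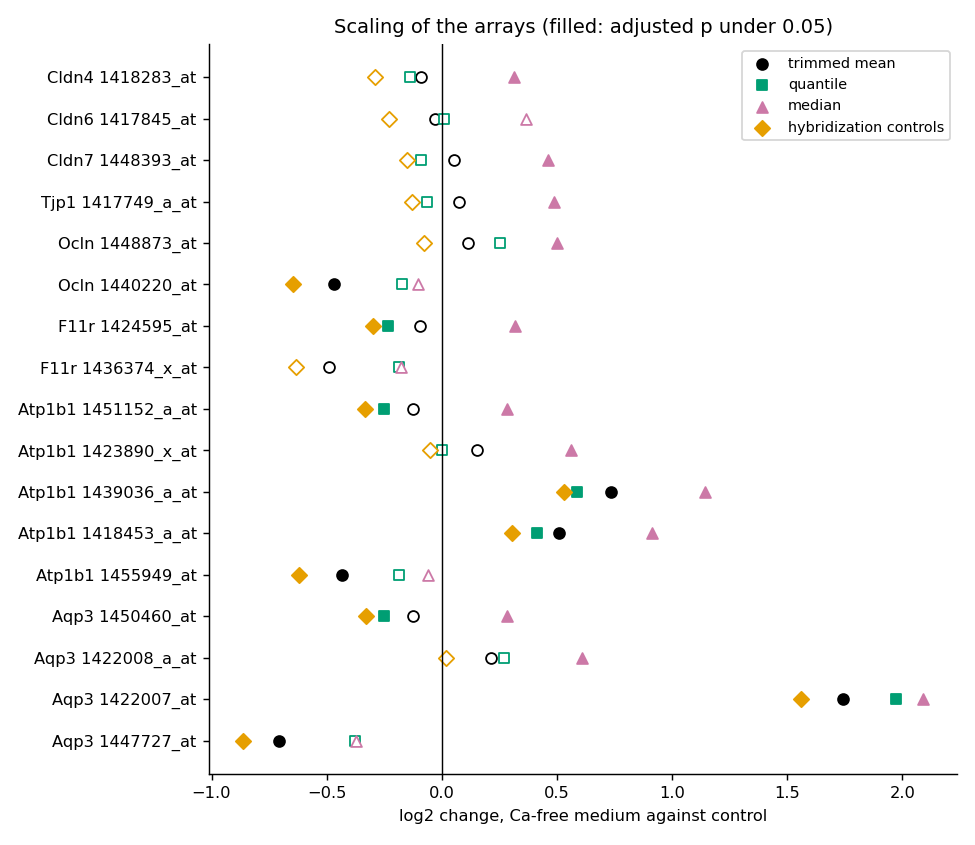
Log2 change in Ca-free medium against control of each of the 17 probe sets under 4 scalings of the arrays; filled symbols passed the test (limma, adjusted p under 0.05). The 3 probe sets called higher under every scaling are 2 of Atp1b1 and Aqp3 1422007_at, and no other probe set is filled on the same side of 0 under all 4.

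Other genes of the pathway were read by the brightest tested probe set of each, 62 genes in 7 lists. Of these, 1 rose and 22 fell in Ca-free medium by limma, against 12.3% higher and 28.8% lower of the 13599 genes read this way. The balance turned with the scaling: 1 higher and 8 lower by quantile normalization, 24 and 4 by median scaling, and 0 and 38 by the hybridization controls. The counts and values that follow are by trimmed mean. After 20 pulses 0 passed by limma, against 0.75% higher and 0.331% lower, with 8 higher and 9 lower at an unadjusted p under 0.05. After 20 pulses, quantile normalization called 1 higher and scaling to the hybridization controls 6. Among claudins, 5 of 9 fell, with Cldn14 (-0.89), Cldn15 (-0.57) and Cldn2 (-0.57) at the smallest p-values. These 5 were dim, with means of 141 to 343 in controls. The brightest of the 9, Cldn12 (mean 1207), did not pass (0.27, limma adjusted p = 0.0760). Among other membrane proteins of the junction, Igsf5 (-0.47) and Esam (-0.43) fell and Marveld2, tricellulin of the tricellular contacts, rose (0.26; limma adjusted p = 0.0334), 3 of 8 in all. Of 12 plaque proteins 4 fell, among them the scaffolds Cgn (-0.27, but 0.13 under median scaling) and Mpdz (-0.36) and the exchange factor Arhgef2 (-0.71). For the plaque list quantile normalization gave 1 lower, and median scaling 5 higher and 0 lower. Marveld3, Jam2, Cxadr and Magi3 did not pass by their brightest probe set, but a dimmer one of each was called lower in Ca-free medium.

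Of 6 sodium pump subunits and regulators 3 fell, the beta subunit Atp1b2 (-0.69) and the modulators Fxyd3 (-0.64) and Fxyd4 (-0.46). Among sodium exchangers and channels 4 of 6 fell, with Slc9a8 (-0.64), Slc9a7 (-0.72) and Slc9a3 (-0.50). Of 7 aquaporins 3 fell, Aqp8 (-0.68; limma adjusted p = 0.000294), Aqp11 (-0.50) and Aqp2 (-0.50), and of 14 polarity proteins 1, the angiomotin family member Amotl1 (-0.88). Genes that fell in these lists averaged 153 to 748 in controls. The brightest of the pump, exchange and aquaporin lists did not pass: Atp1b3 (mean 3184, change 0.08), Slc9a3r1 (5120, -0.13) and Aqp9 (2250, -0.18). Some genes that did not pass by their brightest probe set had a dimmer one that did. In Ca-free medium a dimmer probe set was called lower for Slc9a3r1, Aqp9, Aqp4, Prkci, Crb3 and Amot, and 2 were called higher for Lin7c. Cldn14, Amotl1, Atp1b2 and Aqp8 were called lower under all 4 scalings. Leaving out a single array ended the call of Marveld2 for 4 of the 12 arrays, Esam for 3, Cgn for 2, Mpdz for 4, Arhgef2 for 7, Slc9a7 for 1, Slc9a3 for 3 and Aqp2 for 8. The fall of the oviduct and cumulus markers given above ran alongside these, and their part was not tested.

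The members whose brightest probe set varied most over the 12 arrays were Cldn6 and Ocln, with an SD of 0.21 and 0.19 on the log2 scale. Likeness was measured as the root mean square difference of log2 signal over the 12 arrays after centring each profile. Nearest to Cldn6 were Cdc20 (0.0899), Ipo4 (0.0955) and Snord104 (0.0994). Nearest to Ocln were Orc5 (0.0917), Ankhd1 (0.0950) and Ubxn2b (0.0955). All probe sets share the same 12 arrays, so these values are a description.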

How the data were processed

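Expression was measured on 12 arrays of mouse blastocysts, 4 per group; per the labels, total RNA was purified and turned into biotinylated cRNA with a small-sample assay. The authors deposited linear intensity values made with MAS5, per the submitters' processing notes; the sources used here name neither its version nor a genome build. Every array had been scaled to a 2% trimmed mean of 150.001. Here each was rescaled to 500 (times 3.33), 32 was added and log2 taken; probe sets with a mean of at least 100 were tested. On the deposited scale these are 9.60 and 30.0. Detection calls and scan dates were not used; precision is limited by how many arrays there are.

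Tests used limma 3.58.1 (R 4.3.3; intensity trend, all 12 arrays in 1 model, Benjamini-Hochberg over all 27808). Array controls (64) were left out. The platform's table pairs 34958 probe sets with 1 gene, 932 with several and 9147 with none; 34754 were matched to RefSeq (GRCm38.p6), for names only. Promoter letters are from RefSeq. Named genes are all members, the pathway genes with the smallest p per list among those that passed (3 in Ca-free medium, 2 after 20 pulses), and the 3 nearest profiles of 2 members. Members, lists and rule were chosen with earlier results of these data known. The procedure was tested on simulated data. Alternatives are given in the closing section. Replicate numbers are not said to mark pairs, and the main fit used no pairing. Deviations of same-numbered arrays correlated at a mean r of 0.0156 (12 pairs, -0.06 to 0.10). For arrays with different numbers the mean r was -0.00521 (36 pairs, -0.12 to 0.07).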

Additional observations from a re-analysis of the deposited data

Results flagged for a closer look

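Of 51 groups of 4 arrays examined (17 probe sets in 3 groups), 1 held an array far from the others: on F11r 1436374_x_at, replicate 3 of the 20 pulses group read 144 while the others read 75.0 to 85.5. Its gap to the nearest array was 0.848 of the whole range, above Dixon's 95% critical value for 4 arrays. Chance flags about 1 in 20 groups.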

How the results depend on the processing

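With the 12 arrays left out in turn, the members called in Ca-free medium numbered 3 to 4 higher and 3 to 4 lower, after 20 pulses 2 higher and 0 lower, and in Ca-free medium against 20 pulses 0 to 1 higher and 1 to 3 lower. In Ca-free medium against control, median scaling gave 12 higher and 0 lower, hybridization control scaling 6 lower, and controls 3 and 4 only 1 lower. A minimum of 300, and the values as deposited with the minimum of 100 on that scale, gave 2 higher and 1 lower each. Under these 2 settings Ocln 1440220_at, Aqp3 1447727_at and Aqp3 1422007_at were under the minimum and were not tested, so their calls were not ended by a test. After 20 pulses, controls 3 and 4 only gave 3 higher and 1 lower, and hybridization control scaling 3 higher and 0 lower. In Ca-free medium against 20 pulses, the higher count was 0 under quantile normalization, hybridization control scaling, no filter, no intensity trend and Ca-free arrays 2 and 3 only, 9 under median scaling, and 2 with an added value of 100 or Ca-free arrays 1 and 4 only. The lower count was 0 under median scaling and Ca-free arrays 2 and 3 only, and 13 under hybridization control scaling. Over all tested probe sets, this comparison gave 2565 higher and 6505 lower by trimmed mean and 1422 and 1378 by quantile normalization. Median scaling gave 8773 and 979 over all, and hybridization control scaling 92 and 19868, so the members moved with all probe sets. The replicate block gave 3 higher and 3 lower, 2 and 0, and 1 and 3 for the 3 comparisons, which changed no count. Of the 12 arrays, 7 correlated best with their own number. Same-numbered pairs were 12 against 36 others, so unrelated numbers would be expected to match best for fewer arrays than these 7. A correlation over 0.1 was seen in 1 of the 12 same-numbered pairs and in 0 of the 36 others. Whether the numbers mark pairs was not tested further. The cause of the other shifts in the counts was not tested.

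Signs turned on log2 changes that had mostly not passed. Under median scaling, Ca-free medium against control turned to 0.31 for Cldn4, 0.37 for Cldn6, 0.32 for F11r 1424595_at, 0.28 for Atp1b1 1451152_a_at, 0.28 for Aqp3 1450460_at and 0.13 for Cgn; 20 pulses against control to 0.0255 for Cldn7 and 0.032 for Tjp1; Ca-free medium against 20 pulses to 0.22 for Cldn4, 0.26 for Ocln 1448873_at, 0.16 for F11r 1436374_x_at, and for Atp1b1 0.32 (1451152_a_at), 0.23 (1418453_a_at) and 0.0137 (1455949_at), and to 0.12 for Aqp3 1450460_at. Under quantile normalization, Ca-free medium against control turned to 0.0089 for Cldn6, -0.0904 for Cldn7 and -0.0646 for Tjp1, 20 pulses against control to 0.0185 for Tjp1, and Ca-free medium against 20 pulses to -0.0596 for Cldn7, -0.083 for Tjp1, 0.0394 for Ocln 1448873_at, -0.13 for F11r 1424595_at, 0.16 for F11r 1436374_x_at and -0.0885 for Atp1b1 1423890_x_at. Under hybridization control scaling, Ca-free medium against control turned to -0.15 for Cldn7, -0.13 for Tjp1, -0.0785 for Ocln 1448873_at and -0.052 for Atp1b1 1423890_x_at. There 20 pulses against control turned to 0.15 for Cldn7, 0.16 for Tjp1, 0.089 for Ocln 1440220_at, 0.0433 for F11r 1424595_at, 0.0884 for Atp1b1 1451152_a_at and 0.0442 for Atp1b1 1455949_at. Ca-free medium against 20 pulses turned to -0.16 for Cldn6, -0.30 for Cldn7, -0.29 for Tjp1, -0.34 for F11r 1424595_at, -0.30 for Atp1b1 1423890_x_at, -0.16 for Atp1b1 1439036_a_at and -0.34 for Aqp3 1422008_a_at.

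With controls 1 and 2 only, Cldn6 turned to 0.24 in Ca-free medium and 0.0412 after 20 pulses, Cldn7 to 0.13 and Aqp3 1422007_at to -0.11 after 20 pulses. With controls 3 and 4 only, Cldn7 turned to -0.0875 in Ca-free medium, and Tjp1 and Atp1b1 1451152_a_at to 0.0397 and 0.0394 after 20 pulses. With Ca-free arrays 1 and 4 only, Tjp1 turned to -0.0204 against control and to -0.0169 against 20 pulses, Ocln 1448873_at to -0.0431 against control, and Aqp3 1422008_a_at to -0.0269 against control and -0.23 against 20 pulses. With Ca-free arrays 2 and 3 only, Ocln 1448873_at turned to 0.0638 and Atp1b1 1423890_x_at to -0.056 against 20 pulses. With 1 array left out, the range crossed 0 for Cldn6 in Ca-free medium (-0.14 to 0.0655), after 20 pulses for Cldn4 (-0.0497 to 0.17), Cldn7 (-0.0609 to 0.0574), Tjp1 (-0.0237 to 0.0349) and Ocln 1440220_at (-0.10 to 7e-04), and against 20 pulses for F11r 1436374_x_at (-0.27 to 0.097) and Aqp3 1422008_a_at (-0.0776 to 0.10).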
